A study of Mus musculus with 9 samples.

Results

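The hippocampus of 3xTg mice dosed with the compound LP-10d was compared with that of 3xTg mice given vehicle, over all genes and with 3 libraries against 3. These 6 libraries were taken by their labels from a series of 9, and the other 3 came from wild-type mice given vehicle. Vehicle was the blank solvent by mouth 4 times a week. Treated mice received LP-10d at 10 mg/kg by mouth on the same weekly schedule, and the titles give a treatment of 1 month. All mice were female and 9 months old, and RNA was taken from the hippocampus. The wild-type mice were C57BL/6J. All 6 libraries compared here come from the transgenic line, whose alleles include APPSwe and tauP301L. Nothing in the labels ties each replicate to its own animal, and the p-values therefore describe spread among libraries that may not be separate mice. Within a 3xTg group, pairs of libraries differed more than counting noise gives, at a chi-square per degree of freedom of 4.99 to 16.6.

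In the 3xTg line, mutant human APP and MAPT are expressed in neurons from the Thy1 promoter. Amyloid plaques and tau tangles form with age, which makes the line a model of neuronal overexpression rather than of sporadic disease. The series title speaks of modulating 3 kinase targets without naming them or the compound, and no structure is given for LP-10d. The hippocampus encodes memory, and its neurons switch on immediate early genes after firing. It also keeps a circadian clock, in which CLOCK and ARNTL activate the Per and Cry genes that then repress them, and its cells make their own cholesterol under the transcription factor SREBP2. In bulk tissue, fewer cells of a type and less RNA per cell cannot be told apart.

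Total counts of the 6 libraries ran from 16582086 to 18961044. Levels are CPM (counts scaled to a common library size) from the deposited counts with trimmed-mean scaling, and fold changes are log2 values of treated minus vehicle, with their standard error (SE). Hippocampal neuron markers were present in all 6 libraries, with Prox1, the granule cell transcription factor, between 46.5 and 74.1 CPM and Slc17a7, the vesicular glutamate transporter, between 1646 and 2170 CPM. Markers of neighbouring tissue were uneven, as the plot of marker lists by library shows. The 12 striatum genes summed to 189.6, 1611 and 218 CPM in vehicle and 190.2, 195 and 197 CPM in treated libraries, so vehicle replicate 2 stood apart. The same library had the highest sum of thalamus genes, 408 CPM against 138 to 230.2 CPM in the other 5. The 16 choroid plexus genes summed to 1604, 392 and 234 CPM in vehicle and 2291, 4083 and 238 CPM in treated libraries, which overlap. Counts of the Y-linked genes Ddx3y, Eif2s3y and Kdm5d were 2, 4 and 3 in vehicle replicate 1 and 0 in the other 5 libraries, where a count of 0 allows up to 3 counts.

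**Figure D1:**
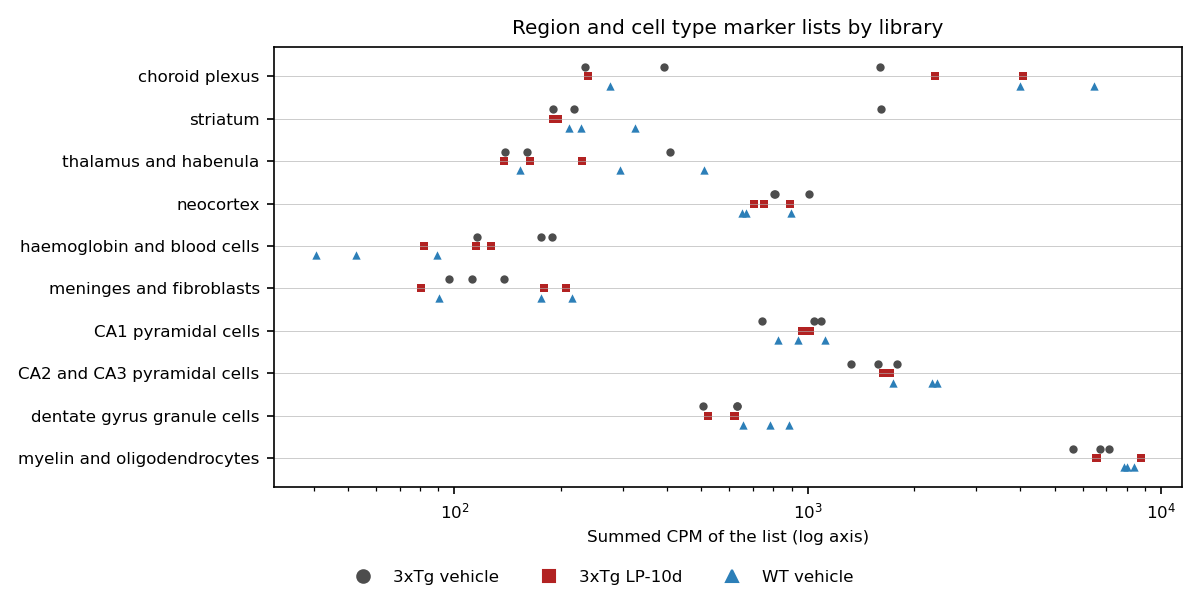
Summed CPM of each region or cell type marker list (log axis), 1 point per library, for 3xTg vehicle (circles), 3xTg LP-10d (squares) and wild-type vehicle (triangles). Vehicle replicate 2 reached 1611 CPM of striatum genes against 190 to 218 CPM in the other 3xTg libraries, and the choroid plexus sum spanned 234 to 4083 CPM within the 6.

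No gene passed the adjusted threshold of 0.05 with edgeR's quasi-likelihood test (0 of 17396 genes, 0%), where the smallest adjusted p was 0.9997, so that value is a lower bound for every gene named here. With edgeR, 504 genes (2.9%) had an unadjusted p under 0.05, and 339 of them (1.95%) were lower and 165 (0.948%) higher in treated libraries. If no gene changed, about 870 would be expected under that threshold, more than the 504 found with the wild-type libraries in the fit. With the 6 libraries fitted alone, 1019 of 16947 genes were under it, so this shortfall depends on the fit. DESeq2 called 1 gene, Plxnd1, and counted 427 at the same unadjusted threshold, while limma-voom called 0 and counted 451. The 3 treated libraries all lay below the 3 vehicle libraries for 1011 genes (5.81%) and all above them for 1012 (5.82%), and 8716 genes (50.1%) had a log2 fold change under 0. For such a gene a two-sided exact permutation test of 3 against 3 libraries gives p = 0.1, the smallest it can reach. The counts below are read against these shares.

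The median log2 fold change over all genes was -0.0003 and the middle 90% of genes lay between -0.40 and 0.37. Precision was moderate, with a median SE of 0.16. The 95% confidence interval of the change stayed within 2-fold for 84.8% of genes and within 1.5-fold for 63.4%. Among the 10208 genes with a mean of at least 10 CPM these shares were 98% and 90.4%, so for most well-expressed genes a change above 1.5-fold in either direction lies outside the interval. A change of more than 2-fold was fitted for 193 genes, 88 higher and 105 lower, and 29 of these averaged at least 10 CPM. With the 6 libraries fitted alone, whose common coefficient of variation was 0.116 against 0.157 with the wild-type libraries included, 1019 genes had an unadjusted p under 0.05 and 0 passed the adjusted threshold.

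**Figure D2:**
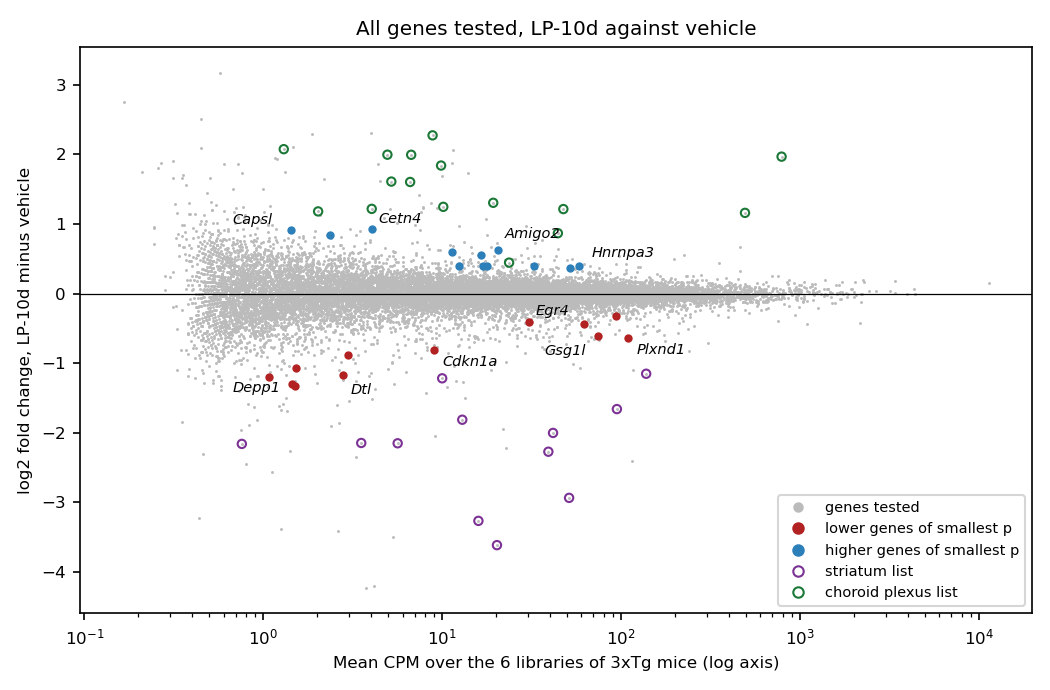
Log2 fold change of treated minus vehicle against mean CPM over the 6 libraries (log axis), 1 grey point per gene tested. The genes of smallest p (filled, 12 in each direction) had log2 fold changes between -1.33 and 0.93, while the striatum list (median -2.15) and the choroid plexus list (median 1.45), drawn as rings, stand away from 0.

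Plxnd1 (ENSMUSG00000030123, mm10 chromosome 6, 115954811 to 115995005) encodes plexin D1, a receptor for semaphorins in axon and vessel guidance, and had the second smallest p. It was at 123, 141 and 135 CPM in the 3 vehicle libraries and 80.7, 79.1 and 97.6 CPM in the 3 treated ones. Every treated library lay below every vehicle library, and wild-type libraries lay lower still at 49.4, 64.6 and 57.1 CPM. Here and below, treated and wild-type libraries are set against the same 3 vehicle libraries. A wild-type level on the treated side is therefore favoured by the way genes and lists were picked, and no test of it was made. The means were 133 ± 9.18 CPM in vehicle and 85.8 ± 10.2 CPM in treated libraries (SD, n = 3 each), a log2 fold change of -0.63 ± 0.12 (SE) with a confidence interval of -0.90 to -0.37. The DESeq2 adjusted p was 0.0204, the edgeR adjusted p 0.9997, and over 20 alternatives the adjusted p ran from 0.0204 to 1. Without any 1 of the 6 libraries the log2 fold change was -0.74 to -0.58. Non-overlap was part of the rule that picked this gene and the others of smallest p named below. Their separation, and a sign kept when 1 library is left out, therefore add no support.

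Other members of the semaphorin system were spread on both sides. Of 20 plexin, semaphorin and neuropilin genes tested, 7 were lower and 13 higher, 4 lower and 2 higher ones had an unadjusted p under 0.05, and the median log2 fold change was 0.054. The mean over the list had the other sign, with -0.029, -0.044 and -0.032 in treated libraries relative to vehicle. Sema3a, a repulsive guidance ligand, was at 5.58, 8.798 and 6.59 CPM in vehicle and 4.402, 2.55 and 3.57 CPM in treated libraries, again without overlap (-0.99 ± 0.27, SE). The neuropilins, which are its co-receptors, lay on the other side. Nrp1 was at 52.3, 40.6 and 51.7 CPM in vehicle and 62.9, 58.9 and 63.1 CPM in treated libraries (0.35 ± 0.12, SE), and Nrp2 at 73.2, 63.2 and 60.6 and 77.99, 101 and 74.8 CPM (0.36 ± 0.12, SE). None of these passed with edgeR's adjusted threshold.

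The smallest p belonged to Dtl (ENSMUSG00000037474, mm10 chromosome 1, 191537356 to 191575544), a substrate receptor of the CUL4 ubiquitin ligase in DNA replication. It was at 3.16, 4.20 and 4.19 CPM in vehicle and 1.69, 1.78 and 1.65 CPM in treated libraries, with no overlap, and at 1.09, 1.31 and 0.834 CPM in wild-type libraries. Its log2 fold change was -1.17 ± 0.20 (SE, interval -1.62 to -0.72) and edgeR's unadjusted p was 0.000173. These levels rest on counts of 60 to 77 in vehicle and 30 in each treated library. Cell cycle genes as a list were split. Of 15 tested, 9 were lower and 6 higher, with a median of -0.040, and Pcna, the replication clamp, had a log2 fold change of 0.070 ± 0.081 (SE).

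Cdkn1a, which encodes the cell cycle inhibitor p21 and is induced by p53 and by glucocorticoids, was at 8.73, 14.2 and 11.4 CPM in vehicle and 7.45, 5.69 and 6.42 CPM in treated libraries. The groups did not overlap, and the log2 fold change was -0.81 ± 0.19 (SE, interval -1.22 to -0.39). It was -0.62 without vehicle replicate 2. Of 14 p53 targets tested, 9 were lower and 5 higher, and Cdkn1a was the only one with an unadjusted p under 0.05 by edgeR. Of 15 glucocorticoid-responsive genes, 11 were lower, and Cdkn1a and the clock gene Per1 were the ones under that threshold. The glucocorticoid list's mean relative to vehicle was -0.035, 0.0037 and 0.032 in vehicle and -0.21, -0.083 and -0.087 in treated libraries on the log2 scale, without overlap. That mean includes Cdkn1a, which was picked for non-overlap, and it was not taken without that gene. Of the list's genes, 3 did not overlap, all lower, against 5.81% of all genes.

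Depp1, a FoxO target that responds to fasting, stood at 1.89, 2.21 and 2.34 CPM in vehicle and 0.734, 0.889 and 0.933 CPM in treated libraries. The 3 treated values lay under 1 CPM and the 3 vehicle values at 1.89 CPM or more, a log2 fold change of -1.33 ± 0.30 (SE, interval -1.98 to -0.67). Foxo3, a FoxO transcription factor repressed by insulin signalling, was at 90.9, 95.4 and 108 CPM in vehicle and 74.9, 66.3 and 84.4 CPM in treated libraries (-0.38 ± 0.15, SE). Of 14 FoxO and insulin-regulated genes, 10 were lower and 4 higher with a median of -0.057, and these were the members with an unadjusted p under 0.05. The list's mean relative to vehicle was -0.033, 0.059 and -0.026 in vehicle and -0.20, -0.13 and -0.14 in treated libraries on the log2 scale, without overlap. That mean includes Depp1, which was picked for non-overlap.

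Vegfa, the vascular endothelial growth factor, was at 99.2, 103 and 111 CPM in vehicle and 85.8, 84.4 and 80.7 CPM in treated libraries. Its groups were tight and, as the rule that picked it required, did not overlap. The log2 fold change was -0.32 ± 0.082 (SE, interval -0.51 to -0.14), and -0.35 to -0.28 when any 1 library was left out. Endothelial and mural cell genes were centred near 0, with 8 of 15 lower and a median of -0.0050. Gsg1l, an auxiliary subunit of AMPA receptors, was at 76.8, 108 and 84.2 CPM in vehicle and 60.3, 51.99 and 64.3 CPM in treated libraries (-0.61 ± 0.15, SE). Ryr1, an intracellular calcium release channel, was at 60.6, 83.4 and 68.7 and 49.9, 52.6 and 54.2 CPM (-0.44 ± 0.11, SE). For both, vehicle replicate 2 was the highest library, and without it the changes were -0.45 and -0.31.

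Genes at low level filled the rest of the lower set. Fst encodes follistatin, which binds activin, and was at 1.95, 2.10 and 2.18 CPM in vehicle and 0.677, 0.949 and 1.32 CPM in treated libraries (-1.07 ± 0.26, SE). Krt20, a keratin, was at 3.104, 3.97 and 4.52 and 2.596, 1.601 and 2.03 CPM (-0.89 ± 0.22, SE). Otop2, a proton channel, was at 1.16, 1.99 and 1.36 and 0.734, 0.593 and 0.604 CPM (-1.21 ± 0.30, SE). Ighg2c, an immunoglobulin heavy chain constant region, was at 1.58, 2.78 and 1.85 and 0.846, 0.593 and 1.04 CPM (-1.30 ± 0.35, SE), though reads may be shared with related immunoglobulin genes. In each of these genes the treated libraries lay below the vehicle libraries, as the rule that picked them required, all at low counts.

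**Figure D3:**
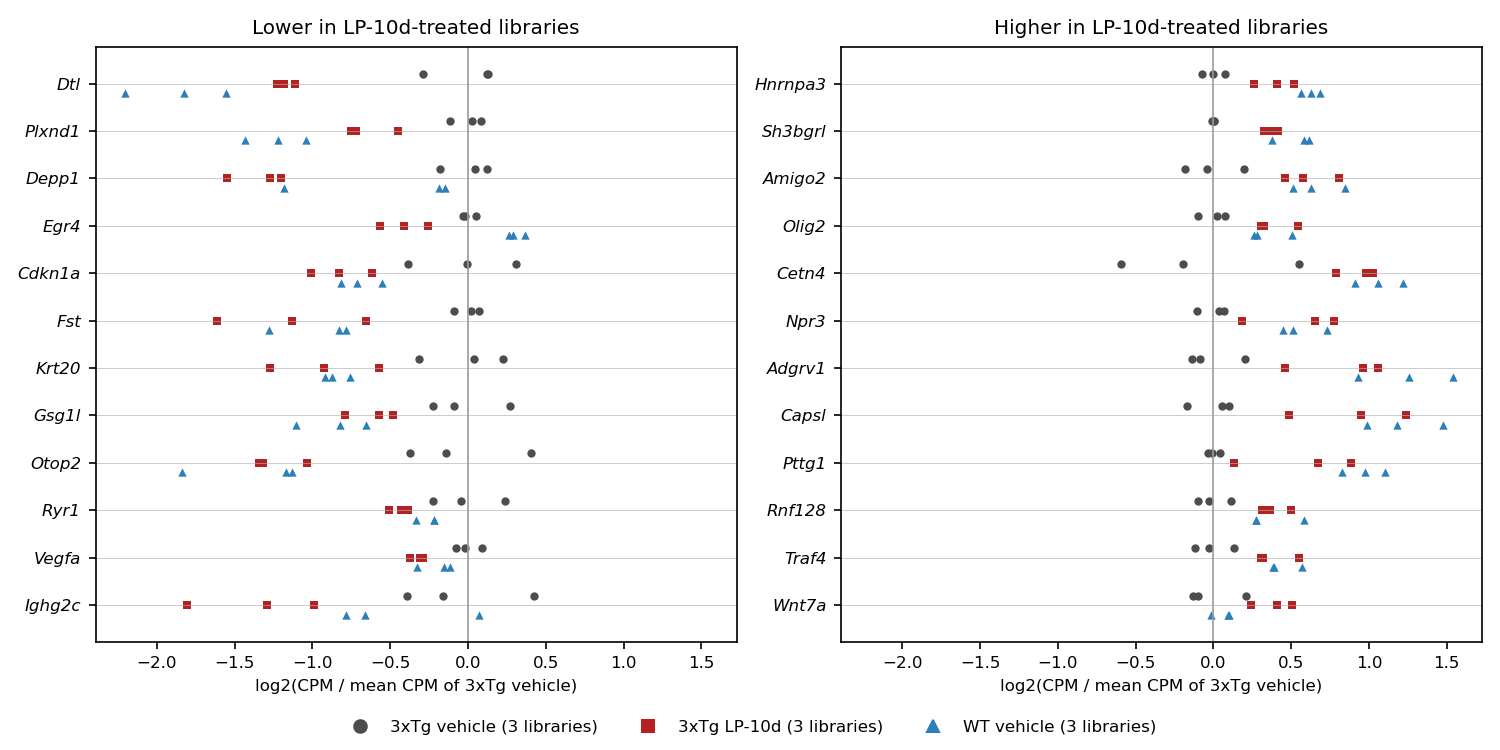
Log2 of CPM over the mean of 3xTg vehicle for the 12 genes of smallest p in each direction, 1 point per library (circles vehicle, squares LP-10d, triangles wild type). Non-overlap of treated and vehicle libraries was part of the rule that picked these genes, and Sh3bgrl shows the tightest vehicle group (45.0 to 45.4 CPM).

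Among the genes that lay higher, Hnrnpa3 (ENSMUSG00000059005, mm10 chromosome 2, 75659261 to 75669407), an RNA-binding protein of pre-mRNA processing, had the smallest p. It was at 47.4, 49.8 and 52.7 CPM in vehicle and 59.99, 71.6 and 66.2 CPM in treated libraries, and at 77.2, 73.8 and 80.2 CPM in wild-type libraries. The log2 fold change was 0.40 ± 0.087 (SE, interval 0.21 to 0.59). Of 20 SR and hnRNP splicing factors tested, 14 were higher and 6 lower, but the median was only 0.035 and no other member had an unadjusted p under 0.05. Processed copies of this gene exist in the genome, and how reads shared with them were counted is not given in the sources used here.

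Sh3bgrl, a small thioredoxin-fold protein, was at 45.04, 45.4 and 45.3 CPM in vehicle and 60.3, 58.5 and 56.6 CPM in treated libraries (0.37 ± 0.083, SE). Its groups did not overlap, as the rule that picked it required, and leaving out any 1 of the 6 gave a change of 0.35 to 0.39. Amigo2, a neuronal adhesion molecule that marks hippocampal area CA2 and is also used as a reactive astrocyte gene, was at 15.7, 18.6 and 14.3 CPM in vehicle and 24.2, 28.3 and 22.2 CPM in treated libraries (0.62 ± 0.14, SE, interval 0.31 to 0.93). Of 12 CA2 and CA3 genes, 8 were higher and 4 lower with a median of 0.071, and Amigo2 was the only one with an unadjusted p under 0.05.

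Olig2, the transcription factor of the oligodendrocyte lineage, was at 29.6, 26.2 and 28.5 CPM in vehicle and 40.9, 35.2 and 34.7 CPM in treated libraries (0.40 ± 0.10, SE). Its partner Olig1 was at 141, 129.7 and 125 and 151, 148 and 132 CPM, which overlap. Wnt7a, a Wnt ligand, was at 14.3, 17.7 and 13.99 CPM in vehicle and 21.7, 20.3 and 18.2 CPM in treated libraries (0.39 ± 0.12, SE). Nkd2, a Wnt antagonist that beta-catenin induces, was at 11.8, 9.88 and 8.06 and 19.1, 17.7 and 12.8 CPM (0.74 ± 0.27, SE). Of 19 beta-catenin targets, 10 were lower and 9 higher, so this list was split.

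The remaining higher genes were Npr3, the clearance receptor of natriuretic peptides (0.56), the ubiquitin ligase Rnf128 (0.39), the adaptor Traf4 (0.40), and securin, Pttg1 (0.59), all as log2 fold changes. Pttg1 was at 8.94, 8.798 and 9.26 CPM in vehicle and 9.88, 16.6 and 14.3 CPM in treated libraries, so treated replicate 1 was close to the vehicle group. Cetn4, a centrin of basal bodies, was at 4.104, 2.44 and 1.85 and 5.53, 5.69 and 4.83 CPM (0.93 ± 0.25, SE). Adgrv1, an adhesion receptor of ciliated sensory cells, was at 1.58, 1.93 and 1.52 and 3.499, 3.26 and 2.31 CPM (0.85 ± 0.25, SE), and Capsl, a calcium-binding protein, at 1.05, 1.02 and 0.871 and 2.31, 1.897 and 1.37 CPM (0.91 ± 0.27, SE). Cilia were not among the fixed lists. Ependymal cells and choroid plexus bear cilia, and their part in these low-level genes was not tested. The choroid plexus sums of the treated libraries were 2291, 4083 and 238 CPM, and Adgrv1 and Capsl were lowest in the treated library of the smallest sum.

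Immediate early genes encode transcription factors and effectors that neurons induce within minutes of activity. The Egr and Fosb transcripts lay lower in treated libraries, while others of the class overlapped. Of 20 tested (Egr2 did not pass the filter), 14 were lower and 6 higher, 4 (Egr4, Fosb, Egr1 and Egr3) had an unadjusted p under 0.05, all lower, and the same 4 did not overlap between groups. The background shares in that direction were 1.95% and 5.81%. The median log2 fold change was -0.24, against -0.0003 for all genes.

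Egr4 was at 34.5, 34.1 and 36.1 CPM in vehicle and 26.2, 23.6 and 29.2 CPM in treated libraries, a log2 fold change of -0.40 ± 0.094 (SE). Fosb was at 13.2, 15.6 and 15.1 and 7.79, 10.6 and 10.98 CPM (-0.58 ± 0.16, SE). Egr1 was at 173, 204 and 272 and 110.4, 126 and 167 CPM (-0.69 ± 0.28, SE), and Egr3 at 112, 117 and 131 and 90.5, 86.2 and 106 CPM (-0.35 ± 0.15, SE). In Egr1 the margin was narrow, with treated replicate 3 at 167 CPM beside vehicle replicate 1 at 173 CPM. Neocortex markers also lay on the lower side, with 12 of 14 lower and a median of -0.21. They summed to 806, 801 and 1007 CPM in vehicle and 752, 706 and 891 CPM in treated libraries, highest in replicate 3 of each group, as Egr1 and Egr3 were, and their part in these results was not tested. Wild-type libraries were at 42.6, 41.9 and 44.9 CPM for Egr4, above both other groups. When the 6 libraries were fitted alone with the replicate number as a block, a fit chosen after seeing the data, Egr1 was the 1 gene that passed (edgeR adjusted p = 0.048, log2 fold change -0.68), and its adjusted p ran up to 1 over the 20 alternatives.

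The dendritic transcript Arc was at 150.0, 158 and 265 CPM in vehicle and 70.8, 169 and 160.1 CPM in treated libraries, and Fos at 14.8, 14.02 and 26.9 and 5.47, 18.4 and 11.9 CPM. Both were lowest in treated replicate 1 and highest in vehicle replicate 3, and their groups overlapped. Npas4, which is induced by calcium influx alone, was at 14.5, 18.6 and 24.6 and 9.42, 26.7 and 17.8 CPM. Nr4a3 leaned the other way, at 76.97, 55.1 and 64.3 and 76.7, 82.05 and 78.2 CPM (0.27 ± 0.18, SE), and Bdnf, the neurotrophin, was at 28.99, 18.4 and 23.9 and 23.5, 28.2 and 28.2 CPM. The list's mean relative to vehicle was -0.55, -0.0023 and -0.052 in the treated libraries and -0.065, -0.13 and 0.20 in the vehicle ones on the log2 scale. Without treated replicate 1 the median was -0.046, and without vehicle replicate 3 it was -0.11. The class as a whole thus depended on these libraries. Egr4 was at -0.48 to -0.33 whichever 1 was left out, but unlike the class it was picked for groups that do not overlap.

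Promoters of these genes often hold the core letters of the cAMP response element, which CREB binds. In RefSeq promoters of GRCm38.p6, read over the 250 bases before each start, TGACG was found on either strand in 12 of 23 promoters of the 16 listed genes matched (52.2%) and in 17.8% of all 32851 promoters. Promoters of the genes with the smallest p in the class, Egr4 and Fosb, and of Fos for comparison are shown in gene direction over the 180 bases before the start, with the letters of this core (TGACG, or CGTCA on the other strand) in capitals. A match is a description and not a site.
Egr4, chr6:85513590-85513769, minus strand: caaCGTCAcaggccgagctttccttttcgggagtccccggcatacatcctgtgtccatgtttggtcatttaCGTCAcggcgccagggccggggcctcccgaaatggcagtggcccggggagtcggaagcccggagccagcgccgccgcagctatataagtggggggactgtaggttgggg
Fosb, chr7:19310046-19310225, minus strand: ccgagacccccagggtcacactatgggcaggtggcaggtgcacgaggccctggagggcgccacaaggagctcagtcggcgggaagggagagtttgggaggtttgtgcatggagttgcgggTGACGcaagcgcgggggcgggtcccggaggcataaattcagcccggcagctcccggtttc
Fos, chr12:85473710-85473889, plus strand: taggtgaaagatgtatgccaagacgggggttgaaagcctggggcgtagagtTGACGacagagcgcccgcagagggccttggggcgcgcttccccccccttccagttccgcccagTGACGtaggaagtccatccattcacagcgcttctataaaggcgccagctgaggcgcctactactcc

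Clock genes lay on the lower side throughout, each by a small amount. All 19 tested had a log2 fold change under 0, where 50.1% of all genes did, with a median of -0.21 and a range of -0.54 to -0.039. Only Per1 and Cry1 had an unadjusted p under 0.05, while 1.95% of all genes were lower at that threshold. Of the 19, 6 genes (Per1, Cry1, Rora, Npas2, Bhlhe40 and Tef) did not overlap between groups, all lower, against 5.81% of all genes. None passed edgeR's adjusted threshold.

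The repressor arm held the smallest p. Per1 was at 136, 149 and 161 CPM in vehicle and 109, 123 and 124 CPM in treated libraries (-0.32 ± 0.10, SE, interval -0.55 to -0.093). Cry1 was at 12.3, 15.5 and 13.9 and 11.1, 10.97 and 11.03 CPM (-0.33 ± 0.14, SE). The treated values of Cry1 were almost equal and just under the lowest vehicle value. Per2 was at 49.1, 61.2 and 56.9 and 44.4, 45.8 and 52.4 CPM and Per3 at 60.8, 66.9 and 68.7 and 60.2, 55.02 and 63.4 CPM, both with overlap, and Cry2 had the smallest log2 fold change of the Per and Cry genes (-0.082 ± 0.082, SE).

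On the activator side, Arntl, which encodes BMAL1, was at 36.9, 32.9 and 34.7 CPM in vehicle and 26.8, 30.6 and 33.2 CPM in treated libraries (-0.21 ± 0.13, SE). Its partner Clock was at 56.9, 61.2 and 53.4 and 57.8, 49.6 and 59.6 CPM (-0.039 ± 0.11, SE), and Npas2, which can stand in for Clock, at 42.4, 53.5 and 46.7 and 35.8, 41.97 and 40.4 CPM (-0.27 ± 0.19, SE). In the clock of a tissue, BMAL1 and the Per genes peak at opposite times of day. Here both had log2 fold changes under 0. The labels give no time of death, so a difference between groups in time of day and an effect of treatment cannot be told apart.

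The stabilising loop of ROR activators and REV-ERB repressors also lay on the lower side. Rora was at 34.6, 55.6 and 33.98 CPM in vehicle and 28.4, 26.4 and 30.3 CPM in treated libraries, with vehicle replicate 2 the highest (-0.54 ± 0.36, SE). Rora is also strong in thalamus, the tissue whose marker sum was highest in that library, and its change was -0.27 without it. Nr1d1 was at 139.8, 169 and 184 and 139, 132 and 159.7 CPM, and Nr1d2 at 66.03, 85.9 and 77.4 and 74.2, 62.2 and 79.6 CPM, both overlapping. Among the outputs, Dbp was at 50.7, 78.3 and 73.9 and 59.8, 49.7 and 61.7 CPM, Ciart at 9.68, 16.9 and 15.95 and 11.3, 11.1 and 11.2 CPM, and Tef at 396, 411 and 421 and 376, 367 and 392 CPM (-0.11 ± 0.094, SE). As levels per length, Nr1d1 and Tef were the most abundant of those named here, at vehicle means of 53.8 and 52.4 deposited FPKM, and Cry1 was at 4.198 FPKM.

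The list's mean relative to vehicle was -0.17, 0.093 and 0.074 in vehicle and -0.24, -0.26 and -0.12 in treated libraries on the log2 scale. These overlap, since vehicle replicate 1 was low and treated replicate 3 high. Leaving out any 1 library gave a median of -0.29 to -0.14, with 17 to 19 members lower. CLOCK and BMAL1 bind the E-box CACGTG, which was found before the start in 6 of 23 promoters of the 17 clock genes matched (26.1%) and in 6.02% of all promoters. The promoters of Per1 and Cry1, the members of smallest p, and of Ciart, which holds 3 copies, are shown with the E-box in capitals. An E-box and the TGACG core can share letters at their ends, and each motif was counted on its own.
Per1, chr11:69098769-69098948, plus strand: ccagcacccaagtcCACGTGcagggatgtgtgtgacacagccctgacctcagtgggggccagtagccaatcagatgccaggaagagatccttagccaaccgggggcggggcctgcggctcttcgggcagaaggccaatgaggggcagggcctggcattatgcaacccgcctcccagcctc
Cry1, chr10:85185055-85185234, minus strand: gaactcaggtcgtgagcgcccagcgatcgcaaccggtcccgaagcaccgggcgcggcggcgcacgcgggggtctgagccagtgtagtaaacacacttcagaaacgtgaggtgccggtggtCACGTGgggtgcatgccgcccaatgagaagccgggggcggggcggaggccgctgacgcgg
Ciart, chr3:95882229-95882408, minus strand: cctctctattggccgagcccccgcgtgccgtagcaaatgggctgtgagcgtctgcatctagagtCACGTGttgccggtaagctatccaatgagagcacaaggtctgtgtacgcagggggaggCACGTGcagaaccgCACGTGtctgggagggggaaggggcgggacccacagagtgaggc

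Genes of cholesterol synthesis and uptake also lay on the lower side almost throughout. Of 24 tested, 23 were lower and only Ebp higher, and the median log2 fold change was -0.14. An unadjusted p under 0.05 was reached by 5 genes, Mvd and Insig1 among them, and 8 genes did not overlap, all lower in treated libraries, against background shares of 1.95% and 5.81%. None passed edgeR's adjusted threshold.

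**Figure D4:**
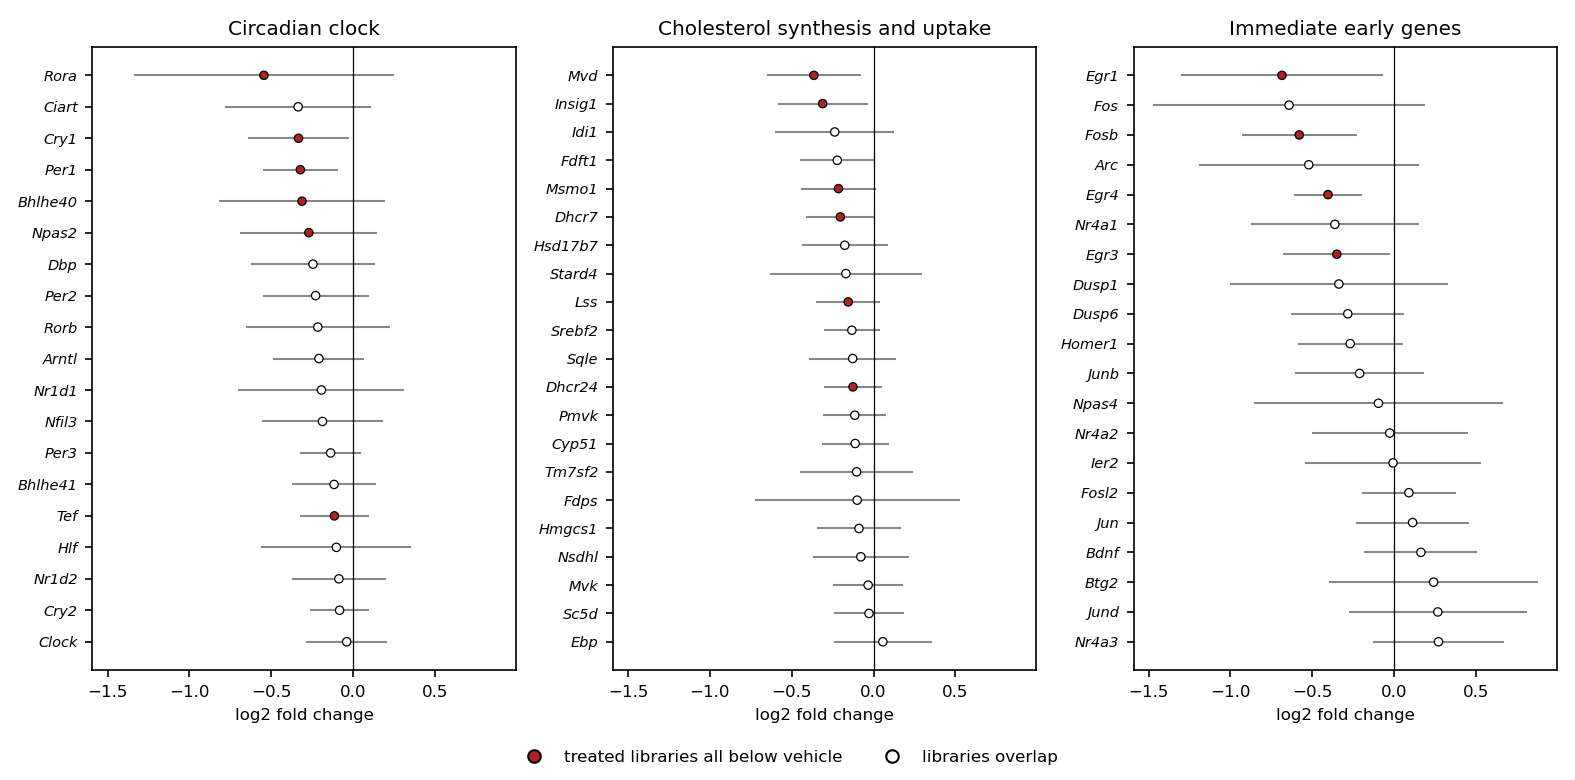
Log2 fold change of treated minus vehicle with its 95% confidence interval for the tested genes of the clock (19) and immediate early gene (20) lists and for 21 of the 24 of the cholesterol list. Filled points mark genes whose treated libraries all lie below the vehicle libraries (6 clock, 4 immediate early and 6 plotted cholesterol genes), and most intervals include 0.

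In the synthesis pathway, Mvd, the decarboxylase that yields isopentenyl diphosphate, was at 37.9, 28.4 and 35.8 CPM in vehicle and 23.5, 28.2 and 27.7 CPM in treated libraries (-0.36 ± 0.13, SE). Further down the pathway, Msmo1 was at 56.7, 50.5 and 53.1 and 45.3, 43.9 and 48.9 CPM and Dhcr7, which makes cholesterol from its last precursor, at 53.9, 46.2 and 50.7 and 45.1, 43.1 and 42.8 CPM. Both lay lower without overlap (-0.21 ± 0.10 and -0.20 ± 0.095, SE). Hmgcs1, a synthase early in the pathway, overlapped between groups at 137, 121 and 135 and 130.0, 116 and 123 CPM (-0.089 ± 0.12, SE), and so did Sqle, the squalene epoxidase, at 66.7, 55.2 and 63.8 and 58.3, 53.2 and 58.5 CPM.

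Regulators followed the same side. Insig1, which holds SREBP in the endoplasmic reticulum, was at 92.02, 68.5 and 87.01 CPM in vehicle and 65.8, 67.8 and 65.97 CPM in treated libraries (-0.31 ± 0.12, SE). Srebf2 itself, which encodes SREBP2, was at 429.8, 398 and 423 and 385, 358 and 399 CPM (-0.13 ± 0.076, SE).

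The list's mean relative to vehicle was 0.070, -0.044 and -0.027 in vehicle and -0.24, -0.22 and -0.18 in treated libraries on the log2 scale, without overlap, and -0.20, -0.29 and -0.34 in wild-type libraries. The treated libraries thus lay lower by an amount above the vehicle spread, though the list was chosen with earlier results of these data known. The median ran from -0.18 to -0.12 when any 1 library was left out, with 21 to 23 members lower. Among the marker lists of glia, which make most cholesterol in brain, 11 of 14 astrocyte and 16 of 16 myelin genes were on the higher side, the latter falling to 9 of 16 without treated replicate 1. The part of cell makeup in the cholesterol result was not tested.

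SREBP2 works beside NF-Y, which binds CCAAT. The letters CCAAT stood before the start on either strand in a promoter of all 16 cholesterol genes matched (16 of 19 promoters, 84.2%) and in 33.8% of all promoters. The sterol element SRE-1, searched as TCACNCCAC on both strands, was found only in Hmgcs1 (1 of 19 promoters, 5.26%, against 1.05% of all). These letters are not particular to a list here, since CCAAT was also in 65.2% of clock promoters, the E-box in 21.1% of cholesterol promoters and TGACG in 36.8% of them. Promoters of Mvd, Dhcr7 and Msmo1, which lay lower without overlap, and of Hmgcs1 are shown with CCAAT or ATTGG, and in Hmgcs1 also the sterol element, in capitals.
Mvd, chr8:122443423-122443602, minus strand: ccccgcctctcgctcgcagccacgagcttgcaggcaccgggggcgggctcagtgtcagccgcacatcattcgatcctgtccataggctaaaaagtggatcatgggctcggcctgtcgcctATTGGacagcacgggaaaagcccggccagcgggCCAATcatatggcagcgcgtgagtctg
Dhcr7, chr7:143830034-143830213, plus strand: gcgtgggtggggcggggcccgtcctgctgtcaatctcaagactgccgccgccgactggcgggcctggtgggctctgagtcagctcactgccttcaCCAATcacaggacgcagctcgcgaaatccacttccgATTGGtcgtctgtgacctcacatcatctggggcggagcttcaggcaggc
Msmo1, chr8:64733579-64733758, minus strand: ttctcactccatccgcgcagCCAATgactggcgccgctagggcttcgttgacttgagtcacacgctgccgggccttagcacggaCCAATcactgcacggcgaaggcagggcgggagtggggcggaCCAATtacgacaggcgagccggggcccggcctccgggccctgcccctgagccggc
Hmgcs1, chr13:119690171-119690350, plus strand: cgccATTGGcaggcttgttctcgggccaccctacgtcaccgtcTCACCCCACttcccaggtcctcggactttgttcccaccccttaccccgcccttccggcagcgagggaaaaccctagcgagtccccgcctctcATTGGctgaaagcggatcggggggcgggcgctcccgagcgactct

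A list of DYRK, CLK, HIPK and GSK3 kinases was also measured, though the labels do not name the 3 kinases of the title. DYRK1A and GSK3B phosphorylate tau, and CLK kinases phosphorylate SR splicing factors. Of 14 tested, 10 were lower and 4 higher, the median was -0.050, and 0 had an unadjusted p under 0.05 by edgeR. Dyrk1a was at 80.2, 75.1 and 83.8 CPM in vehicle and 77.03, 77.7 and 77.8 CPM in treated libraries, with an interval of -0.25 to 0.16 for the log2 fold change. Gsk3b was at 150.3, 176 and 146 and 153, 145 and 149 CPM (interval -0.31 to 0.15), and Clk1 at 82.4, 98.2 and 86.3 and 77.5, 83.8 and 88.9 CPM (interval -0.30 to 0.11). Dyrk1b and Hipk3 lay lower without overlap, with log2 fold changes of -0.20 ± 0.13 and -0.15 ± 0.11 (SE), and Hipk4 had the smallest p (-0.27 ± 0.12, SE, edgeR unadjusted p = 0.0526). RNA levels say nothing of kinase activity.

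The mouse counterparts of the transgenes overlapped between groups. App was at 1721, 1720 and 1517 CPM in vehicle and 1660, 1719 and 1649 CPM in treated libraries (interval -0.24 to 0.28), and Mapt at 628, 637 and 622 and 629, 623 and 605 CPM (interval -0.18 to 0.14). How reads of the human transgenes were assigned is unknown from the sources at hand. Thy1, whose promoter drives the transgenes, varied more, at 1530, 1024 and 1197 CPM in vehicle and 1079, 656 and 1040 CPM in treated libraries (-0.44 ± 0.29, SE). Xist was between 429 and 562 CPM in the 6 libraries, which are labelled female.

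Of 20 genes that process or clear APP, 13 were higher and 7 lower with a median of 0.026. Mme, which encodes the amyloid-degrading protease neprilysin, was the 1 with an unadjusted p under 0.05, at 4.52, 11.7 and 5.28 CPM in vehicle and 4.35, 3.79 and 4.12 CPM in treated libraries. Vehicle replicate 2 was far above the rest, and without it the log2 fold change was -0.26 instead of -0.81. Of 18 genes of tau and its kinases, 14 were lower with a median of -0.028, and 0 had an unadjusted p under 0.05 by edgeR. Cdk5r2, an activator of CDK5, had the smallest p of them (-0.20 ± 0.12, SE).

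Inflammatory and microglial lists had medians near 0. Of 13 homeostatic microglia genes, 12 were lower, by a median of -0.057. That median was -0.00075 with 7 of 13 lower without vehicle replicate 2, -0.024 without treated replicate 2 and -0.11 without treated replicate 3. Of 18 disease-associated microglia genes 8 were lower and 10 higher, with a median of 0.0063. Trem2, the microglial lipid receptor named here after its value was seen, had a log2 fold change of -0.29, and its adaptor Tyrobp 0.012. Cst7 and Clec7a did not pass the filter on low counts, and neither did Tnf, Il1a, Il1b, Il6, Ccl2, Ccl3 and Ccl4. C3, the central complement component, was at 39.4, 3.29 and 1.14 CPM in vehicle and 4.797, 4.45 and 1.48 CPM in treated libraries. Its fitted change of -2.04 came from vehicle replicate 1, and without that library it was 0.70. Interferon-response genes had 12 of 19 lower and a median of -0.022.

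**Figure D5:**
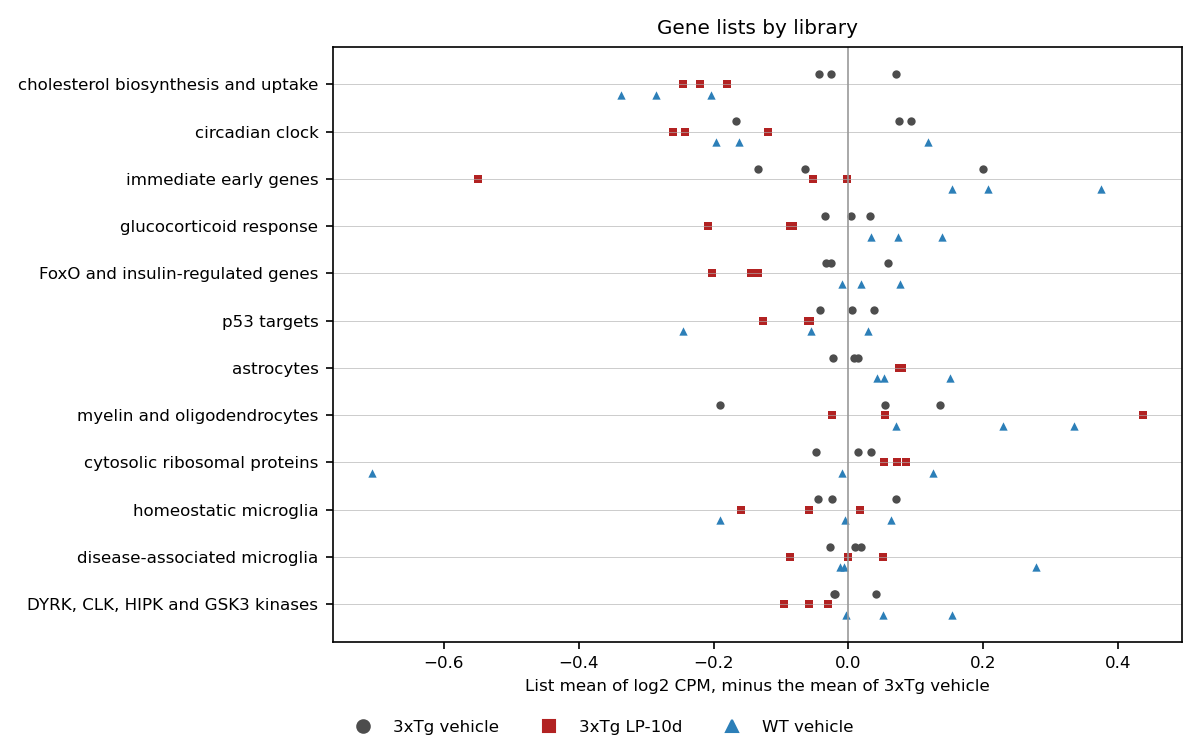
Mean over the genes of each list of log2 CPM relative to the mean of 3xTg vehicle, 1 point per library (circles vehicle, squares LP-10d, triangles wild type). Of the lists drawn, treated libraries all lay below vehicle for cholesterol, glucocorticoid, FoxO, p53 and kinase genes and all above it for astrocyte and ribosomal protein genes, and 1 treated library carried most of the difference in immediate early genes and in myelin genes. The glucocorticoid and p53 lists include Cdkn1a and the FoxO list Depp1, which were picked for non-overlap.

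List means did not overlap between groups for 9 of the 44 lists. They were lower in treated libraries for the cholesterol, glucocorticoid, FoxO and insulin, p53, kinase and semaphorin lists and higher for the astrocyte, ribosomal protein and respiratory chain lists. Over all genes, 11.6% did not overlap in either direction, and the exact permutation test gives p = 0.1 for such a list. Lists share genes and were chosen with earlier results of these data known. In the semaphorin list 13 of 20 genes were higher, with a median of 0.054.

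Astrocyte genes lay slightly higher. Of 14 tested, 11 were higher with a median of 0.071, and the list's mean was -0.022, 0.014 and 0.0089 in vehicle and 0.075, 0.077 and 0.080 in treated libraries on the log2 scale, without overlap. Gfap, the intermediate filament of astrocytes, was at 457, 335 and 434 CPM in vehicle and 567, 469 and 501 CPM in treated libraries (0.33 ± 0.12, SE). Treated values were all above vehicle values, and wild-type libraries were at 517, 554 and 531 CPM. Of 19 reactive astrocyte genes, 10 were higher and 9 lower, so that list was split. Lcn2, a reactive gene, lay lower at 1.42, 0.284 and 0.599 CPM in vehicle and 0.169, 0.119 and 0.165 CPM in treated libraries, which are low levels.

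All 16 myelin and oligodendrocyte genes had a log2 fold change over 0, with a median of 0.14 and 0 with an unadjusted p under 0.05 by edgeR. Treated replicate 1 carried most of this, since the list sums were 7130, 6743 and 5625 CPM in vehicle and 8769, 6547 and 6593 CPM in treated libraries, and the median was 0.012 without it. The median was 0.064 without vehicle replicate 3, the library of the lowest sum. Cytosolic ribosomal protein genes were higher in 29 of 30 and nuclear respiratory chain genes in 26 of 30, by medians of only 0.062 and 0.041. For both lists 0 genes had an unadjusted p under 0.05, and the list means did not overlap between groups. The share of mitochondrially encoded counts was 2.28% to 2.78% in vehicle and 2.47% to 2.86% in treated libraries.

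Neuronal lists had medians near 0. Genes of CA1 pyramidal cells and of dentate granule cells had medians of 0.061 and -0.011, and neither kept its sign when 1 library was left out. The CA1 median was -0.12 without vehicle replicate 2, -0.053 without treated replicate 3 and 0.22 without vehicle replicate 1, and the dentate median ran from -0.11 to 0.13 over the 6. The 20 postsynaptic and 19 presynaptic genes had medians of -0.033 and -0.038. Sema5b, a semaphorin of granule cells, was at 29.8, 43.5 and 34.8 CPM in vehicle and 28.5, 24.6 and 28.05 CPM in treated libraries (-0.41 ± 0.14, SE). Its change was -0.25 without vehicle replicate 2, the highest library. Reln, the secreted protein of a class of interneurons, was at 95.2, 89.3 and 83.5 and 81.9, 67.5 and 70.6 CPM (-0.28 ± 0.094, SE), without overlap. The interneuron list was split, with 11 of 18 genes lower and 7 higher, and 1 in each direction at an unadjusted p under 0.05 by edgeR. Its median was -0.098, and 0.031 without vehicle replicate 2. Calb2, of the same list, lay on the higher side, at 0.43 to 1.08 over the alternatives. Tubb3, the neuronal tubulin, was at 436, 436 and 434 and 367, 354 and 419.8 CPM (-0.19 ± 0.085, SE), and the vehicle libraries were nearly equal.

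Neuropeptide genes leaned down, with 13 of 16 lower, where 50.1% of all genes were, and a median of -0.21. At an unadjusted p under 0.05 there were 5 lower genes and 1 higher, against 1.95% and 0.948% of all genes. Pdyn, which encodes prodynorphin and is strong in granule cells, was at 18.3, 38.9 and 21.2 CPM in vehicle and 11.3, 12.4 and 15.9 CPM in treated libraries (-0.98 ± 0.27, SE). Tac2, which encodes neurokinin B, was at 3.89, 4.71 and 4.46 and 2.65, 3.08 and 2.96 CPM (-0.59 ± 0.20, SE) and Crh, which encodes corticotropin-releasing hormone, at 1.84, 2.497 and 2.45 and 1.64, 1.24 and 1.43 CPM (-0.65 ± 0.22, SE). These 3 did not overlap between groups. Penk, which encodes proenkephalin and is also a striatum gene, was at 13.9, 165 and 16.3 and 11.1, 12.3 and 16.7 CPM, so its fitted change of -2.27 is that of vehicle replicate 2. Pdyn too is made in striatum, and its change was -0.58 without that library. The list's median was then -0.17. It was -0.11 without vehicle replicate 3, -0.11 without treated replicate 2, -0.35 without vehicle replicate 1 and -0.39 without treated replicate 3. The part of striatal tissue in the remaining change was not tested.

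The largest fitted changes belonged to region markers. Striatum genes had a median of -2.15, all 12 lower and 8 with an unadjusted p under 0.05. Adora2a, the adenosine receptor of striatal neurons, was at 2.63, 105 and 4.79 CPM in vehicle and 3.104, 3.32 and 2.69 CPM in treated libraries. Without vehicle replicate 2 the list's median was -0.18 and 8 of 12 were lower. The thalamus list went from -0.54 to 0.20 when that library was left out. Tnnt1, a slow troponin, followed the same library at 1.26, 13.8 and 1.42 and 0.790, 1.19 and 1.21 CPM, and Rasgef1c, a Ras exchange factor, was highest in it at 9.05, 23.2 and 13.3 and 5.98, 4.09 and 7.85 CPM (-0.90 without it, -1.34 with it).

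Choroid plexus genes were higher in all 16, with a median of 1.45, yet 0 had an unadjusted p under 0.05 by edgeR and 0 were free of overlap. Aqp1, its apical water channel, was at 7.31, 0.851 and 0.762 CPM in vehicle and 15.4, 28.2 and 0.494 CPM in treated libraries (2.27 ± 1.32, SE). Ttr, which encodes transthyretin and is named here after its values were seen, was at 837, 98.8 and 26.6 and 1348, 2397 and 18.8 CPM. Treated replicate 3 stood with the low vehicle libraries in both genes. The 7 haemoglobin and blood cell genes were all lower, with a median of -0.61, and Hbb-bs, a beta globin, was at 57.7, 30.8 and 60.2 and 37.02, 27.7 and 32.7 CPM. Globin genes have near-identical copies, so the split of reads between them is uncertain.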

How the data were processed

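Hippocampal RNA was sequenced in 9 libraries, of which 3 treated and 3 vehicle 3xTg libraries are compared. The deposited files hold raw counts of 55471 Ensembl genes (33175 with a count), and FPKM values by the authors with gene names and positions. Positions are on mm10, according to the submitters' processing notes. The aligner, counter and strand setting were not given in the sources used here. Reads of overlapping, antisense or near-identical genes therefore cannot be assigned with certainty. RNA (300 ng) was made into libraries with an MGI kit, per the labels' protocols.

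Counts were fitted with edgeR 4.0.16 in R 4.3.3: filterByExpr (17396 genes), TMM scaling, group means over all 9 libraries, a quasi-likelihood test and a threshold of 0.05 on Benjamini-Hochberg adjusted p. DESeq2 1.42.0, limma-voom and limma-trend on log2(FPKM + 1) and log2(FPKM + 0.1) (limma 3.58.1), other scalings and filters, a replicate block and leaving out each library were alternatives. Fold changes on the log2(FPKM + pseudocount) scale understate low genes. A fit without wild-type replicate 3 and a fit of the 6 libraries with the block were chosen after seeing the data. The scripts were tested on simulated data.

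Same-numbered vehicle and treated libraries deviated together (r = 0.17, 0.10 and 0.38 across genes), and the pairing comes from these values and the titles' numbers, not from a stated litter or batch. Vehicle replicate 1 correlated as well with treated replicate 2 (0.18).

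The genes and the 44 lists (670 genes tested) were chosen with earlier results of these data known. Named are, per direction, the 12 genes of smallest p and the 5 of largest change with libraries that do not overlap and a mean CPM of at least 1, up to 4 members of each list by p, App, Mapt, Thy1 and Xist, and the tested clock, cholesterol, kinase and immediate early genes. Some genes and 1 allele of the line are not reported here. Promoters are RefSeq's, build GRCm38.p6, 250 bases before to 50 after each start, matched by symbol.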

Additional observations from a re-analysis of the deposited data

How the results depend on the processing

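Genes past edgeR's adjusted threshold numbered 0 in every alternative except DESeq2 (1, Plxnd1) and the fit of the 6 libraries with the replicate block (1, Egr1), which was added after seeing the data. The count at an unadjusted p under 0.05 was 504. It was 1067 without a filter (33175 genes tested), 1019 with the 6 libraries alone, 930 without wild-type replicate 3 and 1395 with the 6 libraries and the block, the last of the fits added. When any 1 of the 6 libraries was left out it ran from 302 to 747, with 302 without treated replicate 2 and 316 without treated replicate 1, and the adjusted count stayed at 0. The replicate block in the fit of all 9 libraries gave 539 genes at that threshold and 0 past the adjusted one, and changed no call. The alternatives not named here gave 427 to 526. Scaling moved the median over all genes by less than 0.01.

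Of 252 named genes, 31 changed sign in at least 1 of 20 alternatives (42 of 5032 values). Among the 44 lists, 17 changed the sign of their median at least once (63 of 880 values). Depth limits genes under about 1 CPM, where a library holds some 20 counts or fewer.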

Other observations

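Vehicle replicate 1 had the highest level of the 6 libraries in Hmox1, Osgin1 and Atf3, which were grouped here after their values were seen. Hmox1, the haem oxygenase induced by oxidative stress, was at 18.5, 6.02 and 5.55 CPM in vehicle and 5.70, 5.098 and 5.05 CPM in treated libraries. Osgin1, another stress-induced gene, was at 4.998, 0.454 and 0.272 and 0.621, 0.711 and 0.494 CPM, and Atf3 at 2.999, 0.908 and 1.198 and 1.13, 0.830 and 1.32 CPM. Without that library the log2 fold changes were -0.12 for Hmox1 and 0.74 for Osgin1, against -0.93 and -1.67 with it.

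Tmem267 and Fcgbp had large fitted changes among the higher genes whose groups did not overlap. Tmem267, a membrane protein, was at 1.89, 7.83 and 5.99 CPM in vehicle and 8.86, 8.48 and 12.1 CPM in treated libraries, with vehicle replicate 1 far below the other vehicle libraries. Fcgbp, which encodes a mucin-like secreted protein, was at 2.16, 0.738 and 1.14 and 2.596, 2.67 and 2.36 CPM. Uqcrc1, a respiratory chain subunit, varied within the vehicle group, at 39.2, 90.7 and 69.5 CPM, and was at 71.3, 112 and 61.2 CPM in treated libraries.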
